A study of Mus musculus with 20 samples.

Results

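The genes described here encode the transcription factors TOX and TOX2 and the 3 orphan nuclear receptors NR4A1, NR4A2 and NR4A3. They were chosen by symbol, as the TOX and NR4A genes tied to T cell receptor stimulation and exhaustion, and are 5 of the 49671 genes in the count table. The study sequenced RNA of cultured mouse T cells in 20 libraries, 5 in each of 4 groups. Purified CD8 or CD4 cells had been activated with anti-CD3 and anti-CD28 in 1 ng/mL IL-2 and then grown with IL-7 (10 ng/mL) and IL-15 (50 ng/mL), cytokines that sustain memory T cells. Growth with these cytokines lasted 4 days in the groups CD8 week 1 and CD4 week 1, 18 days in CD4 week 3 and 25 days in CD8 week 4. All 4 groups thus share the activation and both cytokines, and all were sorted as CD44+CD62L+ cells, the surface phenotype of central memory T cells, to a purity above 97%. Per the labels' protocols, activation took 72 h for polyclonal cells of albino B6 mice and 24 h for transgenic cells of the Marilyn-BLITC and MataHari-BLITC strains, which carry 1 T cell receptor each. The labels do not say which library is which, nor give an animal, a culture or an age, so p-values reflect no more than the spread among these libraries, part or all of which may be technical.

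TOX is an HMG-box protein that is needed for CD4 lineage development in the thymus and that maintains the exhausted state of CD8 T cells under chronic stimulation. NR4A1 (Nur77), NR4A2 (Nurr1) and NR4A3 (NOR-1) are immediate early genes of T cell receptor signalling, which reaches them through calcium, calcineurin and NFAT and through MAP kinase pathways. The NR4A proteins act with TOX and TOX2 in exhausted CD8 T cells, and their expression decays when receptor signals cease. They bind DNA as monomers at an extended nuclear receptor element, and NR4A1 and NR4A2 also pair with the retinoid X receptors.

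The libraries held 13.3 to 28.3 M counted reads. Cd4 was at 520 CPM or more in every CD4 library and at most 0.57 CPM in any CD8 library, and Cd8a at 645 CPM or more in every CD8 library. In CD4 libraries Cd8a was at most 3.30 CPM, except for 17.5 CPM in CD4 week 3 replicate 1. CD8 week 1 replicate 3 held the highest summed level of 14 early T cell receptor response genes among the CD8 libraries, 1574 CPM against 977 to 1311 CPM in the others, and results that rest on it are given without it. By the numbers in their titles, CD8 replicates 1 to 3 belong to 1 range (A) and CD8 replicates 4 and 5 to another (B). No other meaning of these ranges is given, and all CD4 libraries have titles in another range, so that title range and cell type cannot be told apart.

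The NR4A genes are known for cyclic AMP response elements in their promoters, so the bases before their start sites are shown first, with the element's core in capitals. In the RefSeq promoter table (GRCm38.p6, the build of the counts), Tox2, Nr4a1, Nr4a2 and Nr4a3 have a window, 4 of the 5 genes. TGACG or its reverse complement CGTCA was searched in the 250 bases before each start site, on both strands. All 3 NR4A windows held 4 matches, and 45 of the 32851 windows in the table (0.137%) held at least 4, while 17.8% held at least 1. The cutoff of 4 is the count seen in these 3 windows and was not planned, so its share is a description only. In Nr4a1 and Nr4a2 the stretch ends at the base before the gene's first exon as the count table gives it, and in Nr4a3 it is cut there, so that 98 bases with 3 of its 4 matches are printed. The stretches are Nr4a1 at chr15:101266596-101266845 on the plus strand, Nr4a2 at chr2:57124004-57124253 on the minus strand and Nr4a3 at chr4:48045055-48045152 on the plus strand, each 5′ to 3′ along its gene.
Nr4a1: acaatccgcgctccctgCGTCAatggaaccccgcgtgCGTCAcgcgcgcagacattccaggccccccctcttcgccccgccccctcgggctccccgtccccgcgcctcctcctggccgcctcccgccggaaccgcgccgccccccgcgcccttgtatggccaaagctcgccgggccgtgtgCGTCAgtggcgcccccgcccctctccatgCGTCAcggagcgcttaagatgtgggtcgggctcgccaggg
Nr4a2: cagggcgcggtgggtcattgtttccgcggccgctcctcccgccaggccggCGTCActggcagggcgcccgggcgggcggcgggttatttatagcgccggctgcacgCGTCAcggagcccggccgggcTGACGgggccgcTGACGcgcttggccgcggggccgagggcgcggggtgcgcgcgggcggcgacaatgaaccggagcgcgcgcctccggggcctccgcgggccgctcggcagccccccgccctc
Nr4a3: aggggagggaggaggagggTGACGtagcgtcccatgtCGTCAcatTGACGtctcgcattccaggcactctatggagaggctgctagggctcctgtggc
The full palindromic element TGACGTCA, which contains the core on both strands, was in none of the 3 windows (1.55% of all windows hold it), nor was the NR4A monomer element AAAGGTCA (1.34%). The NFAT core GGAAA was found once before Nr4a2 and not before Nr4a1 or Nr4a3, while 55.6% of all windows hold it. Of the 5 Tox2 windows, which overlap in part, 1 held a single TGACG match and 2 held a GGAAA match. A match is a run of letters and not a measured binding site.

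Tox (ENSMUSG00000041272, chromosome 4, 6686353 to 6991557, minus strand) was highest in CD4 week 1 and lowest in CD8 week 4. Levels of a gene across libraries are counts-per-million (CPM) on library sizes scaled by edgeR's TMM factors. CD8 week 1 replicates 1 to 5 held 7.57, 5.36, 12.2, 10.4 and 9.49 CPM of Tox, and CD8 week 4 replicates 1 to 5 held 0.679, 0.338, 0.518, 0.322 and 3.57 CPM. Every CD8 week 4 library was below every CD8 week 1 library, and replicate 5 was above the other 4. CD4 week 1 replicates 1 to 5 held 61.7, 26.25, 33.2, 37.5 and 23.7 CPM, and CD4 week 3 replicates 9.42, 5.28, 7.50, 14.3 and 6.04 CPM. All CD4 week 1 libraries were above all libraries of the other 3 groups. CD4 week 3 libraries (5.28 to 14.3 CPM) overlapped CD8 week 1 libraries (5.36 to 12.2 CPM) and reached beyond their range at both ends.

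Tox2 (ENSMUSG00000074607, chromosome 2, 163203125 to 163324170, plus strand), a relative that acts in follicular helper and exhausted T cells, gave 1 read in all 20 libraries together. That read was in CD4 week 1 replicate 1 and equals 0.0415 CPM there. The other 3 groups had no read, which allows up to 0.0317 CPM in CD8 week 1, 0.0266 CPM in CD8 week 4 and 0.0263 CPM in CD4 week 3 (3 counts over the group, counting error only). Tox2 passed no filter on low counts and was not tested, which leaves 4 members among the 13290 genes tested. Of the other family genes, Tox3 reached at most 0.283 CPM in any library and was not tested either. Tox4, which encodes a subunit of a protein phosphatase complex on chromatin, lay between 109 and 157 CPM in all 20 libraries, and its group means of 113 to 124 CPM passed the test in none of the 5 comparisons (edgeR adjusted p 0.413 to 0.976, and no unadjusted p under 0.05).

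Nr4a1 (ENSMUSG00000023034, chromosome 15, 101266846 to 101274792, plus strand) varied severalfold within each group. CD8 week 1 replicates 1 to 5 held 3.47, 3.63, 24.04, 5.73 and 5.80 CPM of Nr4a1, with replicate 3 far above the others. In CD8 week 4 the values were 0.536, 0.113, 1.76, 2.33 and 1.39 CPM, all below those of week 1. In CD4 week 1 Nr4a1 was at 9.96, 7.01, 6.00, 1.65 and 2.25 CPM, and in CD4 week 3 at 1.03, 1.89, 0.471, 0.501 and 0.423 CPM. CD4 week 3 replicate 2 was above CD4 week 1 replicate 4, and these groups therefore overlapped.

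Nr4a2 (ENSMUSG00000026826, chromosome 2, 57106830 to 57124003, minus strand) stood apart in 1 group only, CD8 week 1. CD8 week 1 replicates 1 to 5 held 4.46, 6.26, 3.52, 5.16 and 5.12 CPM of Nr4a2. In CD8 week 4 it was at 2.36, 1.80, 2.17, 1.45 and 1.74 CPM, in CD4 week 1 at 2.03, 1.65, 1.80, 1.45 and 2.21 CPM, and in CD4 week 3 at 1.47, 2.37, 1.33, 1.14 and 1.56 CPM. The lowest CD8 week 1 library was above every library of the other 3 groups, and these 3 overlapped one another.

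Nr4a3 (ENSMUSG00000028341, chromosome 4, 48045153 to 48086447, plus strand) was higher in CD8 than in CD4 cells at both stages. CD8 week 1 replicates 1 to 5 held 10.4, 11.9, 20.9, 8.70 and 8.88 CPM of Nr4a3, and CD8 week 4 replicates 6.32, 7.66, 2.64, 3.34 and 3.48 CPM. Within CD8 week 4, replicates 1 and 2 were above the other 3. In CD4 week 1 the values were 9.29, 4.56, 3.35, 1.05 and 1.38 CPM, and in CD4 week 3 they were 0.759, 1.05, 0.471, 1.23 and 1.27 CPM. CD4 week 1 replicate 4 lay inside the range of CD4 week 3.

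**Figure D1:**
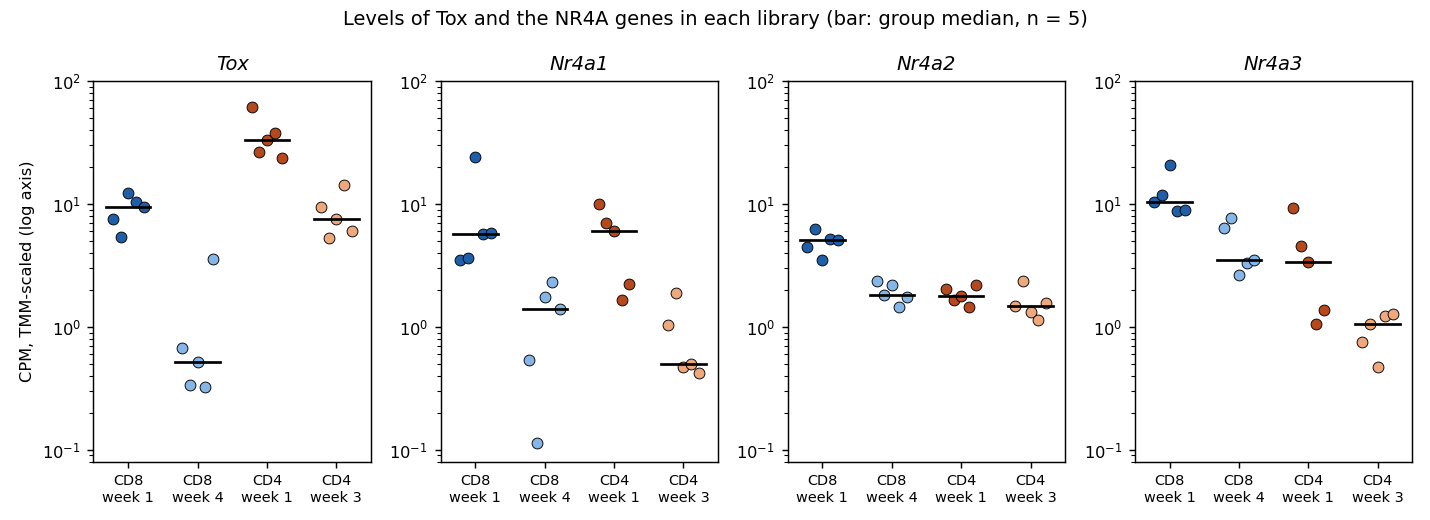
Each point is 1 library, placed by its level in CPM on a log axis, and bars are the medians of the 5 libraries of a group. Tox was highest in CD4 week 1 (23.7 to 61.7 CPM) and lowest in CD8 week 4, and Nr4a2 was raised in CD8 week 1 alone (3.52 to 6.26 CPM).

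Levels of different genes were set side by side per exon length, in transcripts-per-million (TPM, mean ± SD, n = 5). In CD8 week 1, Nr4a1 was at 10.9 ± 11.1, Nr4a3 at 6.40 ± 2.63, Nr4a2 at 3.81 ± 0.741 and Tox at 3.74 ± 1.12 TPM, and no neighbours in this order differed beyond their spread. In CD8 week 4, Nr4a3 (2.40 ± 1.12 TPM), Nr4a1 (1.52 ± 1.12 TPM) and Nr4a2 (1.44 ± 0.269 TPM) overlapped, and Tox was last at 0.436 ± 0.559 TPM, its range overlapping that of Nr4a2. In CD4 week 1 Tox led with 15.4 ± 6.27 TPM, ahead of Nr4a1 at 6.89 ± 4.32, Nr4a3 at 2.08 ± 1.74 and Nr4a2 at 1.45 ± 0.253 TPM, again with overlap between all neighbours in the order. The order in CD4 week 3 was Tox at 3.41 ± 1.31, Nr4a2 at 1.20 ± 0.393, Nr4a1 at 1.08 ± 0.811 and Nr4a3 at 0.492 ± 0.171 TPM, where the lowest Tox library (2.20 TPM) was above the highest Nr4a2 library (1.86 TPM) and the other neighbours overlapped. Tox4 was above all of them, at 50.3 to 56.3 TPM in the group means. Among all genes tested, the group means of the 4 tested members lay between the 4.83 percentile (Tox in CD8 week 4) and the 43.3 percentile (Tox in CD4 week 1).

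**Figure D2:**
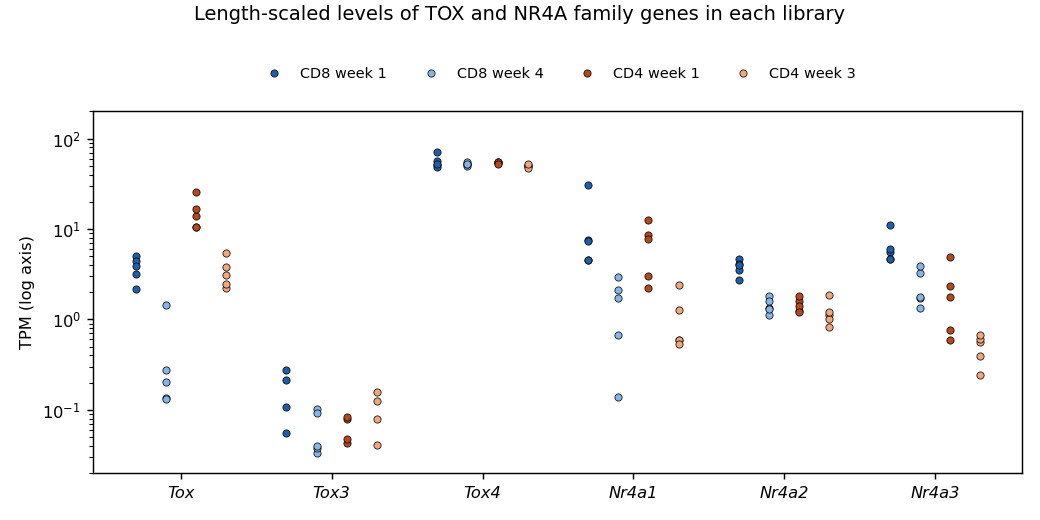
Points are libraries, placed by length-scaled level (TPM, log axis) and coloured by group, and libraries at 0 (in Tox3) are not drawn. Tox changes its place among the genes between groups, which differ in cell type and culture time. Its group means run from 0.436 TPM in CD8 week 4 to 15.4 TPM in CD4 week 1, while Tox4 stays between 50.3 and 56.3 TPM.

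The first comparison was of CD8 cells after 25 days with those after 4 days. All 4 tested members fell in CD8 cells (adjusted p under 0.05 over all genes tested, by the quasi-likelihood test of edgeR with Benjamini-Hochberg adjustment), and in all 4 the groups did not overlap. As background, 17.1% of all tested genes were called higher and 16.4% lower, and the groups of 20.8% of genes did not overlap. Tox fell 8.17-fold (log2 fold change -3.03, SE 0.53, edgeR adjusted p 0.000585), and Nr4a1 fell 6.88-fold (-2.78, SE 0.70, edgeR adjusted p 0.00603). Nr4a2 and Nr4a3 fell by similar amounts, 2.57-fold (-1.36, SE 0.21, edgeR adjusted p 0.0002) and 2.60-fold (-1.38, SE 0.47, edgeR adjusted p 0.031). In bulk RNA, fewer cells with a transcript and less of it per cell cannot be told apart. Within title range A the log2 fold changes were -4.00 for Tox, -3.69 for Nr4a1, -1.18 for Nr4a2 and -1.39 for Nr4a3, and there only Tox passed the test, with 3 libraries a group (edgeR adjusted p 0.0262, 0.112, 0.0814 and 0.122). Within title range B, with only 2 libraries a group, all 4 passed, at -2.39, -1.64, -1.71 and -1.38. That fit called many more genes over the whole table than the fit of range A did (counts are given in the last section). Single libraries set the size of 2 changes: Tox was at -4.24 without CD8 week 4 replicate 5, and Nr4a1 at -1.91 without CD8 week 1 replicate 3. Nr4a3 lost its call without CD8 week 1 replicate 3 (-1.09, edgeR adjusted p 0.0789) and without CD8 week 4 replicate 3, 4 or 5 (-1.23 to -1.28, edgeR adjusted p 0.0687 to 0.0731).

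The second comparison was of CD4 cells after 18 days with those after 4 days. Tox, Nr4a1 and Nr4a3 fell in CD4 cells, 3 of the 4 tested members, against a background of 7.67% of genes called higher and 8.8% called lower. Tox fell 4.29-fold (log2 fold change -2.10, SE 0.48, edgeR adjusted p 0.00843), with no overlap between the groups, which held for 8.15% of all genes. Nr4a1 fell 6.20-fold (-2.63, SE 0.71, edgeR adjusted p 0.0189) and Nr4a3 4.09-fold (-2.03, SE 0.51, edgeR adjusted p 0.0135), with overlapping libraries in both. Nr4a2 was at 1.83 ± 0.301 CPM in week 1 and 1.58 ± 0.474 CPM in week 3 (SD, n = 5), a log2 fold change of -0.21 with an approximate 95% interval from -0.63 to 0.20 that did not pass the test (edgeR adjusted p 0.506). Nr4a1 lost its call without CD4 week 3 replicate 3, 4 or 5 (edgeR adjusted p 0.0513 to 0.0556), and Nr4a3 with limma-voom (-1.65, adjusted p 0.0716) and in a fit of the CD4 libraries alone (-2.03, edgeR adjusted p 0.0509). The Nr4a3 change was -1.42 without CD4 week 1 replicate 1, the library with the most Nr4a3, and stayed called.

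Foxp3, which defines regulatory T cells, differed widely among the CD4 libraries. Foxp3 was at 30.3, 6.73, 53.6, 100.3 and 6.08 CPM in CD4 week 1 replicates 1 to 5 and at 21.7, 0.396, 8.61, 46.4 and 0.761 CPM in CD4 week 3. In both CD4 groups the 2 libraries with the least Foxp3, replicates 2 and 5, were also the 2 with the least Tox, and in CD4 week 3 all 5 libraries had the same order of Tox and of Foxp3. In CD4 week 1 the orders differed: replicate 1 had the most Tox (61.7 CPM), and replicate 4, with the most Foxp3, had 37.5 CPM of Tox. Foxp3 itself was at -1.34 over culture (edgeR adjusted p 0.318). Of the 6 regulatory T cell markers, all had counts in both CD4 groups and 1, Tnfrsf18, was called lower. Their summed level was 850 to 1513 CPM in CD4 week 1 and 531 to 948 CPM in CD4 week 3. The largest part of it was Il2ra, with means of 675 and 566 CPM, while Foxp3 had means of 39.4 and 15.6 CPM. In CD8 libraries Foxp3 was at most 2.29 CPM. In CD8 culture 2 of the 6 markers were called lower, Ikzf2 (log2 fold change -1.65, edgeR adjusted p 0.000147) and Il2ra (-1.29, edgeR adjusted p 0.00158, named after its value was seen), and the summed level was 699 to 1353 CPM in CD8 week 1 and 450 to 765 CPM in CD8 week 4. The part of regulatory T cells in the fall of Tox was not tested in either cell type.

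Summed levels of other cells' markers also differed between groups. Of 5 innate-like T cell markers, 4 were tested and 1, the receptor gene Tcrg-C1, rose in both cell types. Their summed level was 9.12 to 38.0 CPM in CD4 week 1 and 45.7 to 90.4 CPM in CD4 week 3, and 56.04 to 79.0 CPM in CD8 week 1 and 63.3 to 120 CPM in CD8 week 4. The defining factor Zbtb16 was at most 0.166 CPM in any library and at 0 in all CD8 week 4 libraries. The 6 B cell markers summed to 9.42 to 12.9 CPM in CD8 week 1 and 1.07 to 8.96 CPM in CD8 week 4, where Ms4a1, Ebf1 and Pax5 were at 0, and to at most 1.46 CPM in CD4 libraries. The 5 NK cell markers summed to 3.17 to 21.4 CPM in CD8 week 1, 6.26 to 51.2 CPM in CD8 week 4, and at most 1.52 CPM in CD4 libraries. Of 6 monocyte and macrophage markers, Lyz2 was at 0 in all 4 groups, and the sum was 9.03 to 22.7 CPM in CD8 week 1, 4.66 to 24.0 CPM in CD8 week 4 and at most 3.71 CPM in CD4 libraries. Their part in the changes of Tox and the NR4A genes was not tested.

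The third comparison asked whether the changes over culture differed between CD8 and CD4 cells, whose cultures ran for 25 and 18 days. None of the 4 tested members passed the edgeR test of this difference, against 0.248% of all genes called positive and 0.406% called negative, while 1 member had an unadjusted p under 0.05 and DESeq2 called 1. That member was Nr4a2, with a difference of -1.15 on the log2 scale (SE 0.30, edgeR adjusted p 0.0847, DESeq2 adjusted p 0.018), from -1.36 in CD8 and -0.21 in CD4 cells. It also passed the edgeR test without CD8 week 1 replicate 3 (-1.24, adjusted p 0.0274). The difference was -0.93 for Tox (approximate 95% interval -2.28 to 0.42), -0.15 for Nr4a1 (-2.07 to 1.77) and 0.65 for Nr4a3 (-0.68 to 1.99), and these intervals hold differences of 2-fold or more in at least 1 direction. Nr4a1 changed sign with the libraries, to 0.72 without CD8 week 1 replicate 3.

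In the direct comparisons of the cell types Tox was lower in CD8 than in CD4 cells at both stages, Nr4a3 was higher at both and Nr4a2 was higher at week 1. At week 1, Tox was 4.05-fold lower in CD8 than in CD4 cells (log2 difference -2.02, SE 0.48, edgeR adjusted p 0.00291). Nr4a2 was 2.68-fold higher in CD8 cells (1.42, SE 0.21, edgeR adjusted p 5e-05) and Nr4a3 3.10-fold higher (1.63, SE 0.47, edgeR adjusted p 0.0113), while Nr4a1 did not pass the test (0.67, interval -0.59 to 1.93, edgeR adjusted p 0.432; -0.21 without CD8 week 1 replicate 3). The background was 19.1% of genes higher and 19% lower in CD8 cells, and 23.7% whose groups did not overlap, as those of Tox and Nr4a2 did not. In the long-term groups, after unequal times, Tox was 7.71-fold lower in CD8 cells (-2.95, SE 0.53, edgeR adjusted p 0.000348) and Nr4a3 4.88-fold higher (2.29, SE 0.51, edgeR adjusted p 0.00219), each without overlap, against a background of 17.7% higher, 15% lower and 20.6% not overlapping. Tox in this comparison was at -4.15 without CD8 week 4 replicate 5. Nr4a2 (0.27, interval -0.14 to 0.69) and Nr4a1 (0.52, interval -0.89 to 1.92) did not pass. These comparisons use the same libraries as those over culture.

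**Figure D3:**
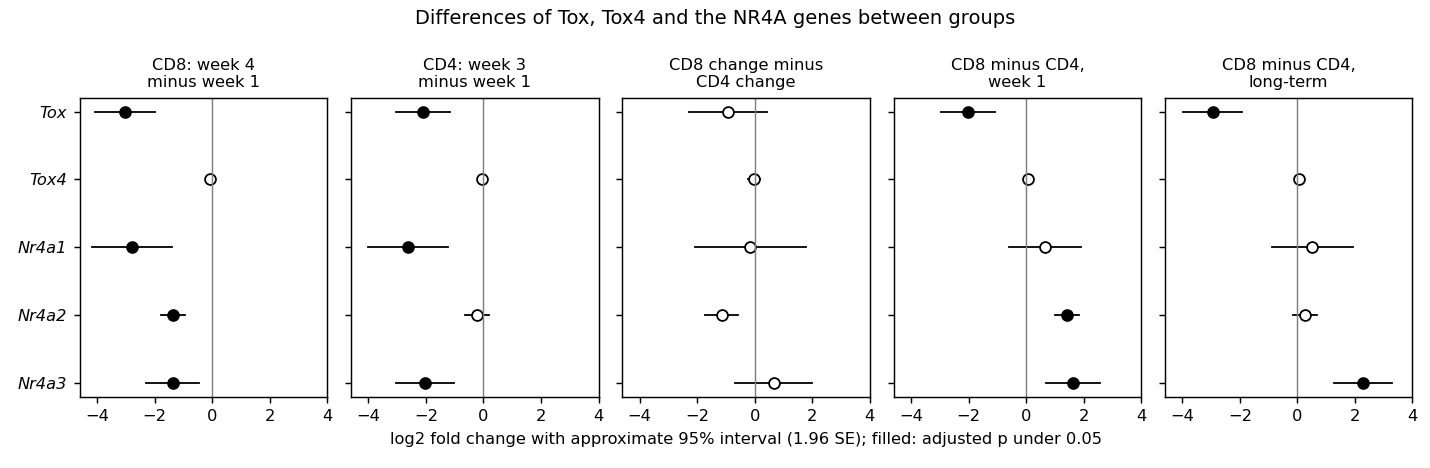
Points are log2 differences between groups with approximate 95% intervals from the SE, 1 panel per comparison, and filled points passed the edgeR test at an adjusted p under 0.05. Tox lies below 0 in both culture comparisons and below 0 between CD8 and CD4 cells (-2.02 and -2.95), Nr4a3 lies above 0 between cell types (1.63 and 2.29), and Tox4 lies near 0 in all panels.

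The genes named from the pathway lists passed the edgeR test with adjusted p between 4.12e-06 and 0.0486 in CD8 and between 0.00013 and 0.0459 in CD4 cells, unless another value is given. Of the CD8 calls given below without a count of losses, those of Brpf3, Irf8, Cd200, Satb1 and Cxcr5 held in all alternatives. The other such CD8 calls were lost at least within title range A. Of such CD4 calls, only that of Irf4 was lost, in a fit of the CD4 libraries alone. The background to every list count below is the share of all tested genes. In CD8 culture 17.1% were called higher and 16.4% lower, and in CD4 culture 7.67% higher and 8.8% lower. Upstream of Tox and the NR4A genes stand calcium entry, calcineurin and NFAT. Of 10 such genes, all tested, 3 rose and 1 fell in CD8 cells and 1 fell in CD4 cells. In CD8 cells Ppp3ca, a catalytic subunit of calcineurin, rose 1.58-fold (95.4 ± 12.4 to 150 ± 22.9 CPM, SD, n = 5) and the NFAT factor Nfatc2 1.42-fold, while Ppp3cb, the other main catalytic subunit, fell 1.23-fold. The third gene that rose, Nfatc3 (1.17-fold, named after its value was seen), lost its call in 21 of 32 alternatives. In CD4 cells Ppp3cb fell 1.13-fold, a call lost in 19 of 29 alternatives. The list's median log2 fold change was 0.16 in CD8 and 0.01 in CD4 cells, beside 0.03 and 0.01 over all genes tested.

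Other early genes of T cell receptor signalling did not move as a group with the NR4A genes. Of 14 such genes, 2 rose and 1 fell in CD8 cells, and 2 fell in CD4 cells, with list medians of -0.02 and -0.12. Irf8, an interferon regulatory factor induced by receptor signals, fell 4.16-fold in CD8 cells (126 ± 45.9 to 30.4 ± 15.2 CPM, edgeR adjusted p 0.00204) and 5.39-fold in CD4 cells (24.9 ± 12.6 to 4.61 ± 3.42 CPM, edgeR adjusted p 0.00288, SD, n = 5). Jun, a subunit of AP-1, rose 1.75-fold in CD8 cells and Nfkbid, a nuclear inhibitor of NF-kappaB, 1.31-fold. Egr3, a zinc finger factor of the same response, fell 5.80-fold in CD4 cells, a call lost in 6 of 27 alternatives. Egr1, the best known gene of the list, was at 46.4 ± 31.5 and 37.8 ± 26.4 CPM in CD8 cells at week 1 and week 4 (SD, n = 5) and did not pass the test (edgeR adjusted p 0.812, named after its value was seen). Its relatives Egr2 (log2 fold change -1.49, edgeR adjusted p 0.0867) and Egr3 (-0.67, edgeR adjusted p 0.441) did not pass in CD8 cells either, and were also named after their values were seen. Over 32 alternatives, 1 to 6 genes of the list were called lower in CD8 cells and 0 to 3 higher. Early genes also rise when cells are handled. Of 10 handling stress genes, 8 were tested, of which Jun and Btg2 rose and Atf3 fell in CD8 cells and Atf3 fell in CD4 cells. In CD4 cells the Atf3 call was lost in 4 of 27 alternatives (log2 fold changes -4.97 to -1.32 over all of them, the last without CD4 week 1 replicate 2). The list's summed level was 354 to 526 CPM in CD8 week 1 and 527 to 675 CPM in CD8 week 4. It was 387 to 746 CPM in CD4 week 1 and 461 to 567 CPM in CD4 week 3. The part of handling in the NR4A changes was not tested.

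Among the partners, both tested retinoid X receptor genes rose in CD8 cells while Nr4a1 and Nr4a2 fell. Rxra rose 3.29-fold (10.4 ± 7.37 to 34.03 ± 20.7 CPM, SD, n = 5), with overlapping libraries and a call lost in 2 of 32 alternatives. Rxrb rose 1.23-fold, a call lost in 5 of 32 alternatives, and Rxrg was not tested. In CD4 cells the log2 fold changes were 0.54 for Rxra (edgeR adjusted p 0.461) and 0.17 for Rxrb (edgeR adjusted p 0.257). TOX is known to bind the HBO1 histone acetyltransferase complex. Of its 9 genes, 3 rose and 3 fell in CD8 cells and 1 fell in CD4 cells, with list medians of -0.17 and -0.05. The scaffold genes Brpf3 and Jade2 both rose 1.53-fold in CD8 cells, as did Ing4 (1.52-fold), and the acetyltransferase gene Kat7 fell 1.15-fold and Meaf6 1.25-fold, as did Ing5 (1.18-fold). Ing4 and Ing5 were named after their values were seen, and the calls of Ing4, Kat7 and Ing5 were lost in 7 of 31, 9 of 32 and 20 of 32 alternatives. In CD4 cells Jade3 fell 1.31-fold, a call lost in 10 of 29 alternatives.

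Of 10 genes listed as inhibitory receptors, 4 fell in each cell type: Cd200, Pdcd1, Lag3 and Ctla4. Not all of the 10 encode receptors: Cd200 encodes a ligand and Entpd1, which was not called, a surface enzyme. Over all tested genes, 16.4% were called lower in CD8 and 8.8% in CD4 cells. TOX and NR4A proteins are known to act on several genes of this list. The other 6 were not called, with log2 fold changes from -1.76 to 0.69 in CD8 and from -1.91 to 1.73 in CD4 cells. The list medians were -1.21 in CD8 and -1.41 in CD4 cells. Cd200, a ligand gene that signals to myeloid cells, fell 31.1-fold in CD8 cells (5.08 ± 1.74 to 0.153 ± 0.134 CPM) and 7.33-fold in CD4 cells (10.4 ± 3.48 to 1.42 ± 0.368 CPM, SD, n = 5). CD8 week 4 held 18 reads of Cd200 in all. Its log2 fold change in CD8 cells was -6.53 to -3.56 over 32 alternatives, and it stayed called in all of them. Pdcd1, which encodes PD-1, fell 11.3-fold in CD8 and 10.8-fold in CD4 cells. Lag3 fell 7.20-fold in CD8 and 30.2-fold in CD4 cells and Ctla4 1.91-fold and 2.77-fold, both named after their values were seen. In CD8 cells the calls of Lag3 and Ctla4 were lost in 6 and 9 of 32 alternatives, and in CD4 cells that of Lag3 in 5 of 29. The log2 fold change of Lag3 was -5.86 to -2.45 over the CD8 alternatives, the first without CD8 week 4 replicates 1 and 2 together. In CD4 cells it was -5.79 to -3.34, the first without CD4 week 3 replicate 2 and the last without CD4 week 1 replicate 2, and its CD4 week 1 libraries ranged from 0.403 to 28.0 CPM.

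Factors of exhaustion, effector and memory states were called in both directions in CD8 cells, as were all tested genes (17.1% higher and 16.4% lower). Of 9 effector and exhaustion factors, 1 rose and 1 fell in CD8 cells and 3 fell in CD4 cells (list medians 0.25 and -0.35). Ikzf2, which encodes Helios, fell 3.13-fold in CD8 cells, and Maf rose 3.38-fold there, a call lost in 5 of 31 alternatives. In CD4 cells Batf fell 1.61-fold, Irf4 3.25-fold and Maf 3.28-fold, the last named after its value was seen and not called in 8 of 28 alternatives. Of 8 memory and naive factors, 3 rose and 1 fell in CD8 cells and 1 fell in CD4 cells (list medians 0.46 and 0.11). Foxo1 rose 1.54-fold and Satb1 1.56-fold in CD8 cells, as did Lef1 (1.52-fold, named after its value was seen). Myb, which maintains stem-like memory cells, fell 2.38-fold in CD8 cells, a call lost in 20 of 32 alternatives, and 3.61-fold in CD4 cells, called in all 29. Of 7 follicular helper genes, 5 were tested: in CD8 cells Bcl6 rose 2.07-fold, a call lost in 7 of 32 alternatives, and Cxcr5 fell 12.8-fold, and in CD4 cells the 5 lay between -1.14 and 0.44 (edgeR adjusted p 0.167 to 0.937).

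**Figure D4:**
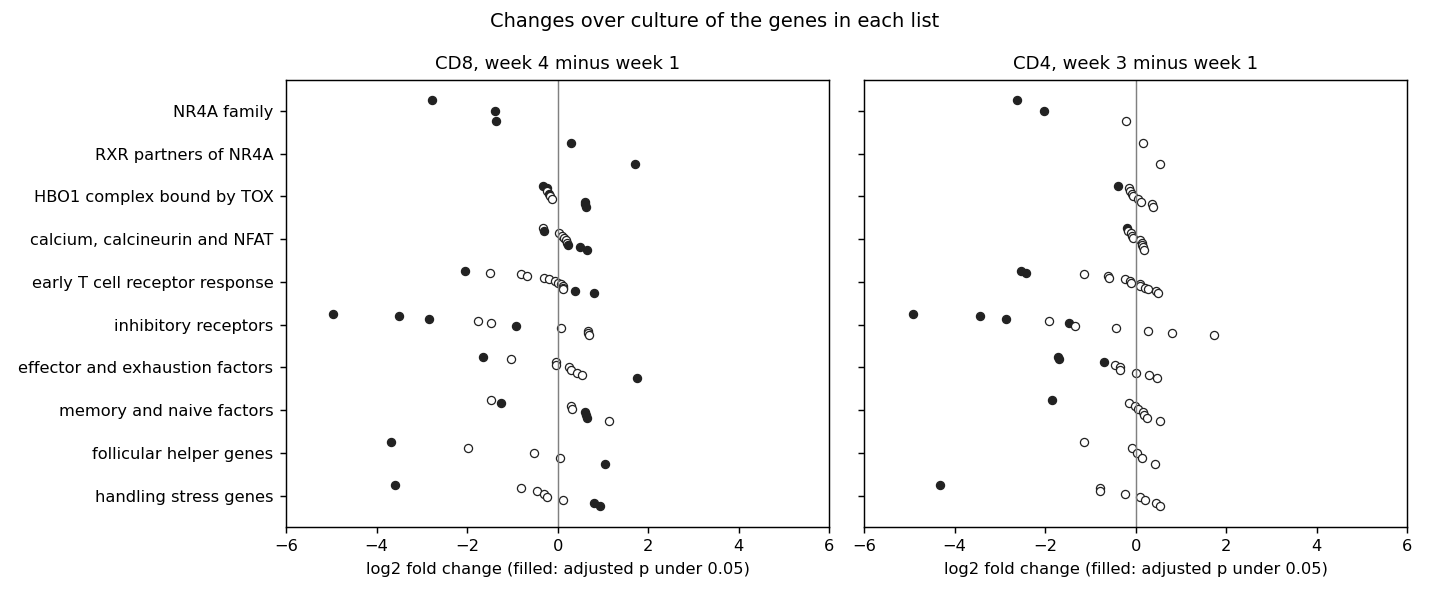
Each point is a tested gene of the named list, placed by its log2 fold change over culture in CD8 cells (left) and CD4 cells (right), and filled points passed the edgeR test at an adjusted p under 0.05. The NR4A genes lie between -2.78 and -1.36 in CD8 cells, and the 14 early response genes lie on both sides of 0. The genes listed as inhibitory receptors reach -4.96 in CD8 cells, the value of the ligand gene Cd200.

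The members did not share 1 pattern. Over the 20 libraries, which include the group differences, Pearson's r of log2 CPM was 0.71 for Nr4a2 with Nr4a3 and between -0.09 and 0.56 for the other 5 pairs. Of deviations from the group means, r lay between -0.28 and 0.26 for all 6 pairs. The 3 genes nearest to each member were found among 8605 or 8606 genes with a mean of at least 10 CPM, and the r of deviations from the group means is given second. Nearest to Tox were Nelfa (0.91 and 0.48), Mfhas1 (0.89 and 0.36) and Stambpl1 (0.89 and 0.56). Nearest to Nr4a1 were Frg1 (0.91 and 0.85), Ykt6 (0.91 and 0.84) and Plaa (0.90 and 0.84), which differed by small amounts between groups, 76.8 against 59.3 CPM for Frg1 in CD8 week 1 and week 4. Nr4a2 had Lrrc40 (0.95 and 0.70), Rad18 (0.93 and 0.70) and Apool (0.92 and 0.68) as neighbours. Tmem9 (0.92 and 0.66), Eci2 (0.91 and 0.73) and Irf8 (0.91 and 0.56) were those of Nr4a3. These values describe 20 libraries that share 4 group means.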

How the data were processed

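The table held reads of polyadenylated RNA, made into directional libraries per the labels' protocols. The authors deposited unnormalized counts for each gene, from STAR alignments to mm10, per the submitters' processing notes, and from featureCounts 1.6.3 over GENCODE M12 exons, reversely stranded, per the file headers. Under these settings, reads with more than 1 location or gene stay uncounted. The deposited exon length of each gene, another column per the file headers, was used for TPM. Of 49671 genes, 49326 had a symbol in GENCODE. No 2 libraries of a group agreed within sampling noise.

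Counts were tested with edgeR 4.0.16 (limma 3.58.1, R 4.3.3): filterByExpr (13290 genes kept), TMM factors and 1 model with a mean for each group, tested by quasi-likelihood F. The SE is the log2 fold change over the square root of F, and intervals span about 95%. Alternatives were other scalings, DESeq2 1.42.0, limma-voom, other filters, subsets of libraries, title ranges, each library left out and neighbouring title numbers as a block. Tests were tested on simulated data. Promoters were searched and figures drawn in Python 3.11.15 (pandas 2.3.3, numpy 2.4.6, matplotlib 3.10.9).

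The members and gene lists were chosen with earlier results of these data known. The rule for named genes takes all members, Tox3, Tox4, up to 2 called genes per list, direction and culture comparison with the smallest adjusted p, and 3 neighbours per tested member (log2 CPM, prior count 2). Genes outside it are said to be named after their values were seen. A planned comparison of protein sequences was not run.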

Additional observations from a re-analysis of the deposited data

Results flagged for a closer look

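3 of the 16 combinations of a tested member and a group held 1 library far from the other 4 in CPM (Dixon's gap over range above 0.71). That cutoff flags about 1 in 20 groups of normally distributed values, and low CPM need not be normally distributed. The rule was not applied to log2 CPM, where high values stand out less, so the number of flags is a description only. Tox in CD8 week 4 replicate 5 was at 3.57 CPM, against 0.322 to 0.679 CPM in the other CD8 week 4 libraries. Nr4a1 in CD8 week 1 replicate 3 was at 24.04 CPM, against 3.47 to 5.80 CPM. Nr4a3 in the same library was at 20.9 CPM, against 8.70 to 11.9 CPM, while its Nr4a2, at 3.52 CPM, was the lowest of the group. The cause of these values was not tested.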

How the results depend on the processing

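Of 579 member log2 fold changes under alternatives, 556 kept their direction and their side of the threshold. Tox kept its call in both culture comparisons under all 32 CD8 and 29 CD4 alternatives (-4.24 to -2.39 and -2.37 to -1.83). All counts of alternatives include fits without a library of a group outside the comparison. Such fits act on a comparison only through the filter, the scaling, the shared spread and the adjustment of p. Scaling moved the median of all genes by under 0.1. The count of called members went from 4 to 1 within CD8 title range A. For the difference between cell types it went from 0 to 1 with DESeq2, and was 0 to 1 over left-out libraries. Changes of sign were seen for Nr4a1, for Tox4 and for no other member: the Nr4a1 difference of changes (-0.15) was 0.42 without CD8 week 4 replicates 1 and 2 together, a setting chosen after seeing the data, and -0.52 to 0.72 over left-out libraries, Nr4a1 in CD8 against CD4 cells at week 1 was -0.21 to 1.01 over left-out libraries, and Tox4 in CD8 culture -0.097 to 0.040. Over all genes, 4454 were called in CD8 culture, 517 in title range A by itself and 6386 in B by itself, which has only 2 libraries a group. In CD4 culture 2189 were called, 1150 with CD4 libraries alone and 1090 to 3650 over left-out libraries, the last without CD4 week 3 replicate 2. For the difference of changes 87 were called, 337 with DESeq2, 55 without a filter, 168 without CD8 week 4 replicates 1 and 2 together and 28 to 317 over left-out libraries, the last without CD8 week 1 replicate 3. For the long-term groups 4342 were called, and 2585 without CD8 week 4 replicates 1 and 2. The causes were not tested. With totals of 13.3 to 28.3 M counts, Tox2 and Tox3 were too low to test. The labels pair no libraries. Neighbouring title numbers of 1 cell type, each 1 week 1 and 1 long-term library, were taken as a replicate block after seeing the data, with 8 residual degrees of freedom. All 4 tested members stayed called in CD8 culture (4607 genes over all) and 2 in CD4 culture (2553 genes), where Nr4a3 was at -1.70 (edgeR adjusted p 0.0546), and 178 genes were called for the difference of changes. Deviations from the group means correlated at -0.113 to 0.469 within the 10 pairs, over 0.1 in 7, and 10 of 20 libraries correlated best with their neighbour, a hint from the data and not from the design.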
